A study of Mus musculus with 6 samples.

Results

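The 10 heat shock chaperone genes Hspa8, Hspa5, Hspa1a, Hspa1b, Hsp90aa1, Hsp90ab1, Hspd1, Hspe1, Hsph1 and Dnajb1 were followed in mouse B cell progenitors across age, genotype and developmental stage. They were chosen by name, with earlier results of these data known but by a rule that uses no measured value, and are 10 of 31053 genes in the deposited matrices. Bone marrow cells of C57BL/6 mice had been sorted as B220+IgM-IgD- cells without CD49b, Gr-1, F4/80, CD11b, CD8a or CD3e at the surface, and were profiled with the 10x Genomics assay for gene expression and V(D)J contigs. The groups compared were young wild-type mice (12 weeks), aged wild-type mice (100 weeks) and 12-week-old mice of the genotype nfkbie-/-nfkbib-/-nfkbia+/- (IkB-deficient), and no group had been treated. Each group was 1 gene-expression library with 1 V(D)J library, made from a pool of 2 mice, so that differences between groups have no replicate check and carry no p-value. Both wild-type groups carry all copies of the 3 inhibitor genes, and in the IkB-deficient mice the labels name no promoter or cell type that would limit the mutations to B cells.

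Heat shock proteins of these families bind unfolded or partly folded proteins and help them fold, assemble or be degraded. Hspa8, Hsp90ab1 and most organelle chaperones are made in unstressed cells, whereas Hspa1a and Hspa1b are the classic targets that heat shock factor 1 induces under stress. In the B lineage the endoplasmic reticulum chaperone BiP, the product of Hspa5, was first described as a protein bound to immunoglobulin heavy chains that have no light chain partner.

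The genes lie apart in the genome, with 2 neighbouring pairs, in GRCm38.p6 (mm10) coordinates of RefSeq. Hspa8 (ENSMUSG00000015656) is at chr9:40801276-40805202, Hspa5 (ENSMUSG00000026864) at chr2:34772090-34776529, Hsp90aa1 (ENSMUSG00000021270) at chr12:110691036-110696395 and Hsp90ab1 (ENSMUSG00000023944) at chr17:45567778-45573261. Hsph1 (ENSMUSG00000029657) is at chr5:149616843-149636498 and Dnajb1 (ENSMUSG00000005483) at chr8:83608175-83612653. The pairs are Hspa1b (ENSMUSG00000090877) with Hspa1a (ENSMUSG00000091971), at chr17:34956429-34959238 and chr17:34969359-34972156, and Hspd1 (ENSMUSG00000025980) with Hspe1 (ENSMUSG00000073676), at chr1:55077833-55088243 and chr1:55088148-55091317. All 10 are protein-coding genes.

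Stages were set per cell from contigs and a few transcripts. A cell with at least 3 UMIs (unique molecular identifiers, 1 per captured transcript) of Siglech, a surface receptor of plasmacytoid dendritic cells, was called Siglech-positive. All others were divided by a productive heavy (IGH) contig and a productive light (IGK or IGL) contig of the same barcode. Those with no chain, a heavy chain only or both chains were called cycling at 3 or more UMIs of Mki67, Top2a, Cdk1 and Birc5 together. Below that they were called resting. Cells with a light chain only and Siglech-positive cells were not split, so these groups can hold both cycling and resting cells. The retained cells numbered 8786 in the young, 7357 in the aged and 8825 in the IkB-deficient library, with medians of 3820, 4334 and 6418 UMIs, and pairs of libraries shared 85 to 108 barcodes. The young, aged and IkB-deficient libraries held 1214, 1997 and 3872 resting cells without a chain, 387, 718 and 1896 cycling cells without a chain, 1605, 1053 and 212 cycling cells with a heavy chain only, and 3431, 1789 and 664 resting cells with a heavy chain only. Smaller groups were resting cells with both chains (1482, 997 and 94), cells with a light chain only (104, 143 and 583) and Siglech-positive cells (495, 609 and 1497).

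Levels are given as CPM, the UMIs of a gene per 1e+06 UMIs outside immunoglobulin and T cell receptor genes, summed over the cells of 1 stage in 1 library. Intervals are 95% intervals for counting error only. Summed over all retained cells Nfkbie stood at 102, 80.5 and 2.59 CPM in the young, aged and IkB-deficient libraries, Nfkbib at 56.1, 53.9 and 18.6 CPM and Nfkbia at 468, 353 and 240 CPM, so each of the 3 mutated genes was lowest in the IkB-deficient library. In the young library 5544 cells had transcripts of Y-linked genes and 0 had Xist alone, in the aged library 3169 and 1766, and in the IkB-deficient library 1 and 8019. Genotype and sex of the pool therefore cannot be told apart in the comparison of the IkB-deficient with the young library. The 9 fixed progenitor B markers (Dntt, Igll1, Vpreb1, Vpreb2, Rag1, Ebf1, Cd79a, Cd79b and Pax5) summed to 5728 to 22207 CPM in the resting and cycling stages with no chain or a heavy chain only. In Siglech-positive cells all 9 were detected too, at 395 to 465 CPM. The list of 4 T cell genes stood at 0.515 to 59.7 CPM in the former stages, and macrophage genes reached 163 CPM. In cycling cells without a chain the neutrophil lineage list stood at 27.7, 232 and 319 CPM (young, aged, IkB-deficient), and in resting ones at 7.31, 15.7 and 166 CPM. The part of such cells in the group ratios was not tested.

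Promoter sequence of the members is shown first, to show how alike the neighbours Hspa1a and Hspa1b are and which genes share an upstream element. RefSeq start sites (GRCm38.p6, the mm10 build) with 250 bases before and 50 after were at hand for 7 of the 10 members, Hspd1, Hspe1, Hspa5, Hsph1, Dnajb1, Hspa1b and Hspa1a. Hspa1a and Hspa1b are neighbours on the minus strand of chromosome 17, with start sites 12918 bases apart. Their upstream 250 bases are printed 5′ to 3′, with the bases that differ between the pair in capitals.
Hspa1a (chr17:34972157-34972406, minus strand): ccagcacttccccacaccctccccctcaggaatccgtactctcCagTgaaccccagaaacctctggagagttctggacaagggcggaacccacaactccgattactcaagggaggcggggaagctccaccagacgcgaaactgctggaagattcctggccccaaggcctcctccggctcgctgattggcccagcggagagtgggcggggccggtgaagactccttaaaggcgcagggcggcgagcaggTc
Hspa1b (chr17:34959239-34959488, minus strand): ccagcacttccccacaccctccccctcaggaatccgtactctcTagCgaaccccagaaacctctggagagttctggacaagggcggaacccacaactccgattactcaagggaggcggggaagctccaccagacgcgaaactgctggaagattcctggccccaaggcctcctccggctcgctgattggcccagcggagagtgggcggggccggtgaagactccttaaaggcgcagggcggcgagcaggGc
The pair differed at 3 of these 250 bases, C44T, T47C and T249G (the base of Hspa1a first, then the position from 1 at the 5′ end, then the base of Hspa1b), and at 4 of the 300 bases of the whole window. Their transcripts were not compared here, but the pair is known to be near-identical, so the division of reads between them is uncertain and their values are best read together.

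Hspe1 and Hspd1, which encode the small and the large subunit of the mitochondrial chaperonin, lie head to head on chromosome 1. The start of Hspe1 (plus strand, 55088148) is 95 bases from 1 start of Hspd1 (minus strand, 55088243) and 216 bases from the other (55087932). Heat shock elements are arrays of the units GAA and TTC, the letters that heat shock factors bind. The 3-unit element GAANNTTCNNGAA, searched on both strands, matched the upstream region of Hspe1, that of Hspd1 at its second start, and a point after the start site of Hsph1, which is 3 of the 7 member genes, where 0.662% of all 27025 genes and 0.603% of their 32851 windows hold a match. Overlapping matches in the 2 windows of Hspe1 and Hspd1 are the same bases, at position -89 from the start of Hspe1, and are shown in capitals.
Hspe1 (chr1:55088053-55088082, plus strand): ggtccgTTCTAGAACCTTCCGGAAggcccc
The 2-unit form GAANNTTC, which lies within the 3-unit element, matched 5 of 7 member genes (9.04% of all genes, 7.86% of windows), Hspa1a and Hspa1b among them at position -104, and the form TTCNNGAA matched 3 of 7 (9.6% of all genes, 8.52% of windows). Hspa5 held the endoplasmic reticulum stress element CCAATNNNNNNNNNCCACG at position -65, which 0.137% of all genes and 0.119% of windows hold, and is shown with the element in capitals.
Hspa5 (chr2:34772005-34772063, plus strand): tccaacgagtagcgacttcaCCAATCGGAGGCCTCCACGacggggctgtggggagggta
These matches describe letters in the windows and not bound sites.

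By level, 7 of the 10 genes stood above 20 CPM in every stage described here, Hsph1 lay between 12.9 and 48.5 CPM, and the pair Hspa1a and Hspa1b was low throughout. Hspa8 encodes the constitutive cytosolic HSP70. In resting cells without a chain Hspa8 stood at 1459 CPM in the young, 1859 in the aged and 2362 in the IkB-deficient library, and in cycling cells without a chain at 2014, 2579 and 2764 CPM. In cycling cells with a heavy chain only the 3 libraries stood at 1954, 2309 and 2859 CPM, and in resting cells with a heavy chain only at 1240, 1530 and 2342 CPM. In each of these 4 stages the young library was lowest and the IkB-deficient library highest. The counting intervals did not overlap, but at these counts they are narrow and take in no difference between pools. Hspa8 was lowest in resting cells with both chains in all 3 libraries, at 1177, 1341 and 1881 CPM.

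Hsp90ab1 and Hsp90aa1 encode the constitutive and the inducible cytosolic HSP90. Hsp90ab1 in resting cells without a chain was at 1610, 1870 and 1941 CPM (young, aged, IkB-deficient), and in cycling cells with a heavy chain only at 2293, 2469 and 3189 CPM. Hsp90aa1 was at 225, 268 and 317 CPM in the first of these stages and at 664, 657 and 867 CPM in the second. Both genes had their highest level in a cycling stage of every library. Over the stages of at least 50 cells the young library ran from 181 to 664 CPM of Hsp90aa1, the aged library from 223 to 701 CPM and the IkB-deficient library from 291 to 867 CPM.

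The mitochondrial pair was also higher in cycling than in resting cells of each library. Hspd1 stood at 92.6, 118 and 139 CPM in resting cells without a chain and at 232, 326 and 344 CPM in cycling ones. Hspe1 stood at 171, 218 and 257 CPM in the resting and at 288, 416 and 362 CPM in the cycling cells. Hspa5 had another order of stages, being lowest in cycling cells with a heavy chain only (193, 200 and 243 CPM) and highest, in the young and aged libraries, in Siglech-positive cells (402 and 401 CPM, with 379 in the IkB-deficient library). Dnajb1, an HSP40 that hands substrates to HSP70, ran from 66.6 to 123 CPM in the young library, from 98.8 to 154 CPM in the aged library and from 111 to 140 CPM where IkB was deficient. Hsph1, an HSP110 that exchanges the nucleotide of HSP70, was lower than these 7, at 14.0 to 28.1, 12.9 to 27.1 and 18.8 to 48.5 CPM. The tops of 140 CPM for Dnajb1 and 48.5 CPM for Hsph1 come from 94 IkB-deficient resting cells with both chains. These held 46 UMIs of Dnajb1, 14 of them in 1 cell, and 16 UMIs of Hsph1.

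**Figure D1:**
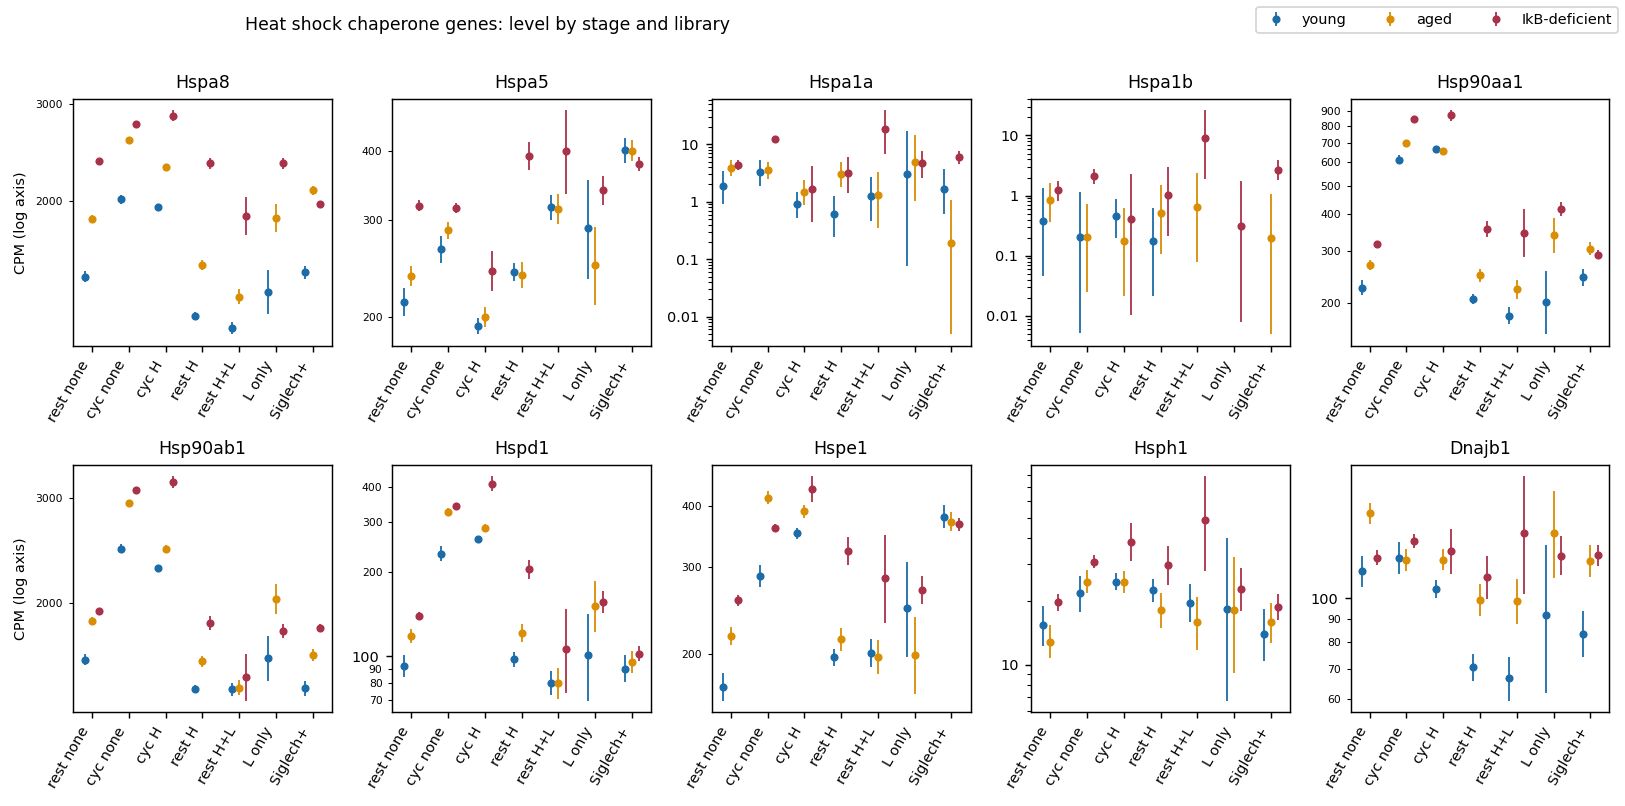
Level of each member in CPM (log axis, a separate scale for each gene) in 7 stages of the young, aged and IkB-deficient libraries. "None", "H", "L" and "H+L" name the productive chains, "rest" and "cyc" resting and cycling cells, points the summed level of 1 library and bars its 95% counting interval, and points with 0 UMIs are not drawn. Hsp90aa1, Hsp90ab1 and Hspd1 peak in the cycling stages of each library, Hspa5 is lowest in cycling cells with a heavy chain only, and Hspa1a and Hspa1b lie at or below 18.2 CPM.

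Whether the members differ between cycling and resting cells was tested within the libraries, since each library holds every stage. edgeR's quasi-likelihood test was fitted on 23 library-by-stage sums with the library as a block, with p-values adjusted by Benjamini-Hochberg over 12056 genes. The 3 libraries are the replicates here, and they differ in age and genotype, so the test asks for a difference that is common to the 3.

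Among cells without a chain, 6 of the 10 members rose in cycling cells and 0 fell, where 22.4% of all genes rose and 36.2% fell. Hsp90aa1 rose by 1.49 ± 0.14 on the log2 scale (SE, edgeR adjusted p = 1.56e-08) and was 2.72-fold, 2.61-fold and 2.66-fold higher in cycling cells of the young, aged and IkB-deficient libraries. Hspd1 rose by 1.45 ± 0.14 (edgeR adjusted p = 2.42e-08), with folds of 2.51, 2.76 and 2.47. The 3 libraries thus gave nearly the same fold for each of these genes. Hspe1 rose by 0.81, Hsph1 by 0.78, Hsp90ab1 by 0.73 ± 0.10 (edgeR adjusted p = 2.53e-06) and Hspa8 by 0.47 ± 0.11 (edgeR adjusted p = 0.000868). The fold of Hspa8 was 1.38 in young and 1.39 in aged cells and 1.17 in IkB-deficient cells, where resting cells already stood high. Hspa5 differed by 0.27 ± 0.12 without passing (edgeR adjusted p = 0.0655). Its folds were 1.25 in young and 1.21 in aged cells and 0.991 in IkB-deficient cells, and without the IkB-deficient library the difference was 0.41 (edgeR adjusted p = 0.00165). It also passed with DESeq2 (0.32, adjusted p = 0.0310) and, in edgeR, with no filter on low counts (0.33, adjusted p = 0.0250). Dnajb1 differed by 0.04 ± 0.12 (edgeR adjusted p = 0.824), with folds of 1.07, 0.789 and 1.09 in the young, aged and IkB-deficient libraries.

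Cells called cycling held more UMIs, so the same difference is wider per cell. The call used raw UMIs without regard to depth, so cells with more UMIs pass it more easily. How much of the gap in UMIs comes from this rule was not tested. The median cell held 12076, 12784 and 12942 UMIs in cycling and 4003, 4234 and 5556 UMIs in resting cells without a chain. Hsp90aa1 went from 0.990, 1.29 and 1.88 UMIs per resting cell to 7.61, 9.64 and 11.5 UMIs per cycling cell. The 10 members together went from 17.2, 22.9 and 32.5 to 74.9, 102 and 107 UMIs per cell, and from 3904, 4742 and 5484 to 6029, 7406 and 7899 CPM.

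Among cells with a heavy chain only, 7 members rose in cycling cells and 1 fell, where 23.3% of all genes rose and 31.6% fell. Hsp90aa1 rose by 1.59 ± 0.14 (edgeR adjusted p = 6.42e-09), with folds of 3.22, 2.64 and 2.44 in the young, aged and IkB-deficient libraries. Hspd1 rose by 1.35 ± 0.14 (edgeR adjusted p = 7.31e-08), with folds of 2.68, 2.37 and 2.02. For both genes the young library gave the highest fold and the IkB-deficient library the lowest, and whether these folds differ between libraries has no replicate. Hspe1 rose by 0.84, Hsp90ab1 by 0.82, Hspa8 by 0.64, Dnajb1 by 0.49 ± 0.12 (edgeR adjusted p = 0.00233) and Hsph1 by 0.43 ± 0.13 (edgeR adjusted p = 0.01). Hsph1 did not pass without the aged library (0.34, edgeR adjusted p = 0.153), nor Dnajb1 among cells with at least 3 UMIs of the progenitor genes Vpreb1, Igll1 and Dntt and none of the mature B genes Fcer2a and Fcmr (0.19, edgeR adjusted p = 0.1703).

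Hspa5 moved the other way in these cells. It fell by 0.30 ± 0.12 (edgeR adjusted p = 0.0452), from 242, 239 and 392 CPM in resting to 193, 200 and 243 CPM in cycling cells with a heavy chain only, so that resting cells were 1.25-fold, 1.19-fold and 1.61-fold higher. The direction was the same in the 3 libraries, but the call lay close to the threshold and was lost without any 1 of them (log2 differences of -0.35 without young, -0.41 without aged and -0.13 without IkB-deficient, edgeR adjusted p = 0.0862 to 0.238). The effect of cycling itself, compared between cells with a heavy chain only and cells without a chain in the same edgeR fit, differed for 0 members, where 0.622% of all genes differed upward and 0.39% downward. At an unadjusted p under 0.05 there were 1 member upward and 1 downward, Dnajb1 (0.45 ± 0.17, edgeR adjusted p = 0.255) and Hspa5 (-0.57 ± 0.17, edgeR adjusted p = 0.131). Hsp90b1, the endoplasmic reticulum HSP90 and the partner of BiP, had a difference of -0.86 ± 0.19 (edgeR adjusted p = 0.0256). It was the 1 gene called of 20 tested endoplasmic reticulum chaperones and genes of the unfolded protein response. The other 19 did not pass, and the median of the list was -0.19.

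**Figure D2:**
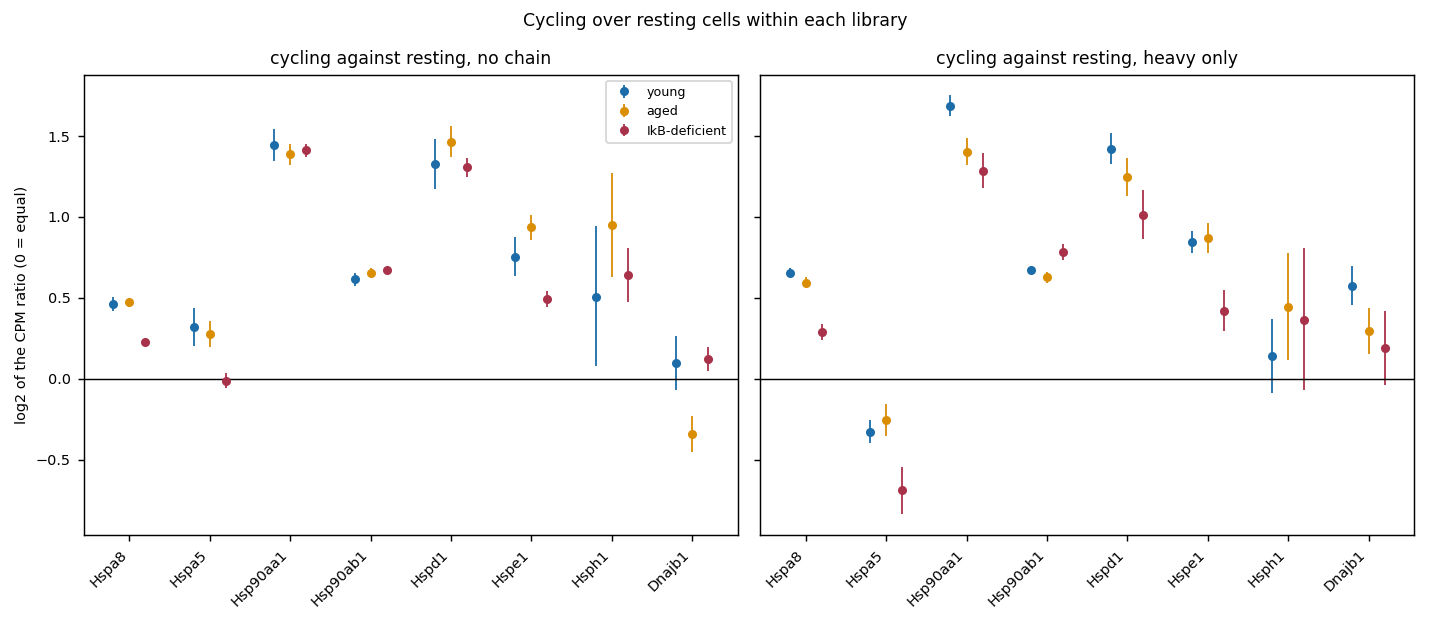
Ratio of CPM in cycling over resting cells on the log2 scale for 8 members, for cells without a chain (left) and with a heavy chain only (right). Points are 1 library each and bars 95% counting intervals, and Hspa1a and Hspa1b are left out for low counts. Hsp90aa1 and Hspd1 lie above 1 in each library, and Hspa5 lies below 0 for each library of the right panel.

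Other genes of the protein-folding system also moved with cycling. Of 23 tested HSF1 and cytosolic co-chaperone genes, 12 rose and 3 fell in cycling cells without a chain, and 13 rose and 2 fell in cells with a heavy chain only. Of 10 mitochondrial chaperones and proteases, 7 and 6 rose and 0 fell, among them Hspa9, the mitochondrial HSP70, at 1.30 ± 0.14 and 1.04 ± 0.15. Of 13 genes of the cytosolic chaperonin ring TRiC and prefoldin, 6 rose and 1 fell without a chain and 8 rose and 1 fell with a heavy chain. The 20 endoplasmic reticulum chaperones and genes of the unfolded protein response were divided, with 9 higher and 5 lower without a chain and 6 higher and 7 lower with a heavy chain. Of 18 immediate early genes, which also respond to tissue handling, 0 rose and 13 and 15 fell in the 2 contrasts. Dnajb1 and Hspa1a can respond to handling too, and the part of handling in the members' values was not tested.

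With the gain of a heavy chain in resting cells, 1 member rose and 1 fell, where 12.8% of all genes rose and 22.3% fell. Hsph1 stood at 15.4, 12.9 and 19.8 CPM in resting cells without a chain and at 22.5, 18.2 and 29.8 CPM with a heavy chain only, and rose by 0.56 ± 0.14 (edgeR adjusted p = 0.00303). Dnajb1 stood at 115, 154 and 123 CPM without a chain and at 70.4, 99.3 and 111 CPM with one, and fell by 0.50 ± 0.12 (edgeR adjusted p = 0.00372). Each library showed the direction for both genes, but neither call was kept without the young library (0.50, edgeR adjusted p = 0.113 for Hsph1 and -0.43, edgeR adjusted p = 0.0503 for Dnajb1), and that of Dnajb1 was lost without the aged library too (-0.42, edgeR adjusted p = 0.134). The cells compared are not at 1 point of development. Resting cells without a chain carried 368 to 415 CPM of natural killer or innate lymphoid markers (6 of 6 genes, led by Gzma or Nkg7), against 5.50 to 13.1 CPM with a heavy chain, and their part in the result was not tested. In cells with at least 3 UMIs of the progenitor genes Vpreb1, Igll1 and Dntt together and none of the mature B genes Fcer2a and Fcmr, 6 of 9 tested members rose and 0 fell, where 4.43% of all 11996 genes of that fit rose and 2.15% fell. Hspd1 had the largest of these differences, at 1.09 (edgeR adjusted p = 0.000104), and Dnajb1 was at -0.19 without passing (edgeR adjusted p = 0.36). The young library kept 164 of its 3431 resting cells with a heavy chain, the aged library 272 of 1789 and the IkB-deficient library 135 of 664. Without a chain the same libraries kept far more, 976 of 1214, 1589 of 1997 and 2510 of 3872 cells. The rise thus describes a small part of the cells with a heavy chain, picked by raw UMIs. The part of this selection in the rise was not tested.

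Between resting cells with both chains and those with a heavy chain only, edgeR called 0 members in either direction, and 0.282% of all genes rose and 0.423% fell. At an unadjusted p under 0.05 there was 1 member, Hspd1, which was lower by every library's own count: 97.4, 121 and 204 CPM with a heavy chain only against 80.4, 80.2 and 106 CPM with both. Its edgeR difference was -0.60 ± 0.15 (adjusted p = 0.0681), and DESeq2 called it (-0.60, adjusted p = 0.0326). Hspa5 stood at 316, 314 and 400 CPM with both chains, a difference of 0.25 ± 0.13 that did not pass (edgeR adjusted p = 0.469). Only 94 cells of the IkB-deficient library had both chains.

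In Siglech-positive cells 2 members were higher than in resting cells without a chain and 0 lower, where 28.2% of all genes were higher and 29% lower. Their plasmacytoid dendritic list (7 of 7 genes, among them the gene that defined these cells) stood at 15014, 11958 and 11826 CPM, against 270 to 1067 CPM in the 4 main stages. Hspe1 stood at 381, 372 and 368 CPM in Siglech-positive cells and was higher by 0.90 ± 0.15 (edgeR adjusted p = 2.40e-05). Hspa5 was higher by 0.73 ± 0.12 (edgeR adjusted p = 3.56e-05), with folds of 1.88, 1.69 and 1.19. Both genes were nearly level among the Siglech-positive cells of the 3 libraries, and the folds followed the resting cells. The other chaperonin subunit, Hspd1, did not share this, at 90.3, 95.2 and 102 CPM and a difference of -0.18 ± 0.14 (edgeR adjusted p = 0.280). A difference between the 2 genes was not tested. Of the 20 endoplasmic reticulum genes 17 were higher and 2 lower, with Hsp90b1 at 1.55 ± 0.13 (edgeR adjusted p = 5.00e-09) among them.

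**Figure D3:**
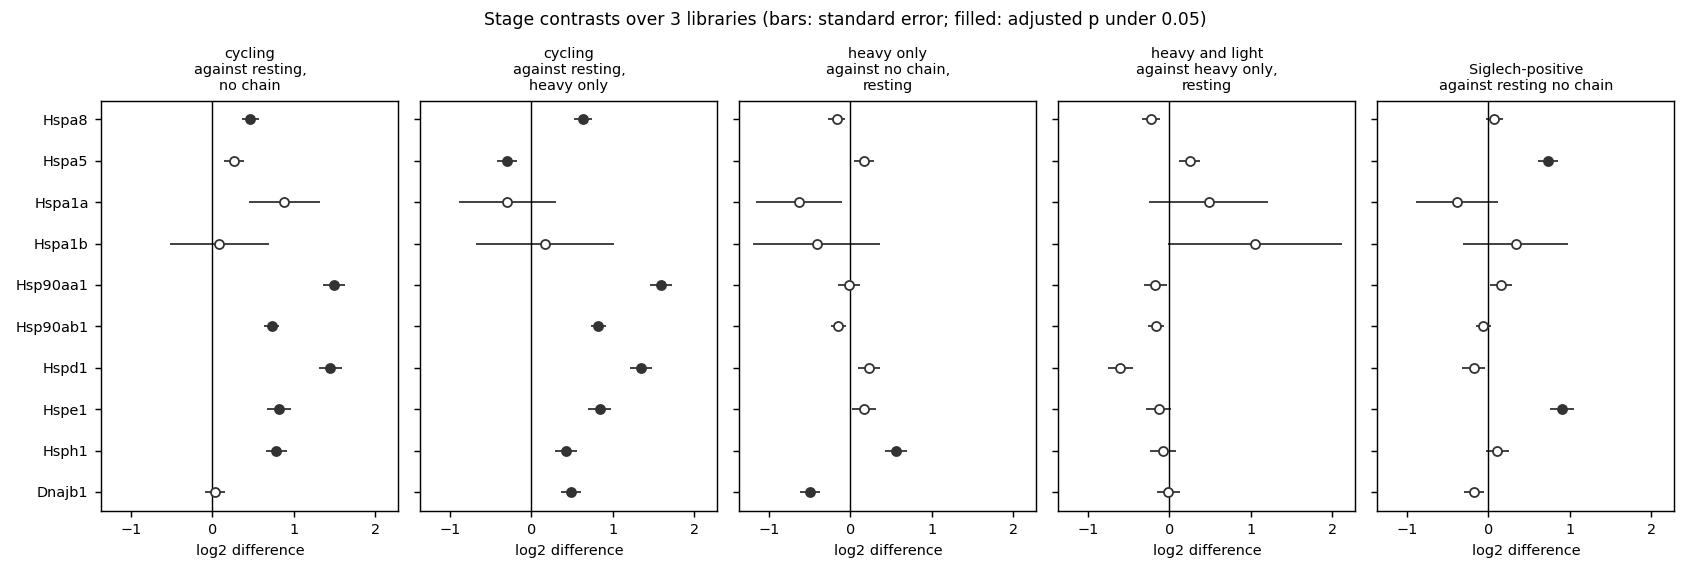
edgeR log2 differences of the 10 members in 5 stage contrasts over the 3 libraries. Points give the estimate, bars 1 standard error, and filled points an adjusted p under 0.05. Filled points stand to the right for 6 and 7 members in the cycling contrasts, for Hsph1 in the contrast of heavy chain with no chain and for Hspa5 and Hspe1 in Siglech-positive cells.

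The question of age was read as the ratio of the aged to the young library in each stage. A gene was called where it differed by 1.5-fold or more at a mean of at least 20 CPM, which is a size and not a test. In the 4 main stages most members of the aged library stood slightly above the young one, and no measured member was past 1.5-fold. The shares of all measured genes called higher and lower were 2.44% and 1.88% in resting cells without a chain, 2.45% and 2.31% in cycling cells without a chain, 0.722% and 1.05% in cycling cells with a heavy chain and 2.48% and 1.09% in resting cells with a heavy chain. The median log2 ratio of the 10 members in these stages was 0.29, 0.17, 0.12 and 0.21, where the median of all measured genes was -0.04, -0.03, -0.04 and -0.02. Resting cells with both chains (997 aged and 1482 young) did not share this, with a members' median of 0.01 beside -0.03 for all genes. There 4 of 7 measured members stood above and 3 below the young value. With only cells of at least 3 UMIs of Vpreb1, Igll1 and Dntt and none of Fcer2a and Fcmr, the members' median was below 0 in cells with a heavy chain only, at -0.11 in cycling and -0.0241 in resting ones. That restriction left 572 aged and 545 young cycling cells, and 272 aged and 164 young resting ones. Cells with a light chain only were few (143 aged and 104 young) and were not split by cycling. There 2 of 7 measured members were called higher and 0 lower, where 13% of all genes were called higher and 16.3% lower. The 2 were Hsp90aa1 at 1.68-fold (1.27 to 2.26) and Dnajb1 at 1.52-fold (0.990 to 2.39).

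Hspa8 was higher in aged cells in each stage. The ratio was 1.27-fold without a chain at rest, 1.28-fold (1.25 to 1.31) in cycling cells without a chain, 1.18-fold (1.16 to 1.20) in cycling cells with a heavy chain and 1.23-fold (1.20 to 1.27) in resting ones. Siglech-positive cells had a ratio of 1.41 (1.36 to 1.46), so the difference was not limited to cells of the B lineage. Of the aged Siglech-positive cells, 325 had Xist alone and 171 Y-linked transcripts alone, and the former stood 1.14-fold higher (1.09 to 1.19). With Y-linked cells alone in both libraries the aged ratio there was 1.30 (1.24 to 1.36). Dnajb1 was 1.34-fold (1.22 to 1.48) higher in aged resting cells without a chain, 1.41-fold (1.27 to 1.57) higher with a heavy chain, 1.48-fold (1.26 to 1.74) with both chains and 1.45-fold (1.26 to 1.67) in Siglech-positive cells. In cycling cells without a chain its ratio was 0.990 (0.896 to 1.09). Hspe1 and Hspd1 had aged ratios of 1.44 (1.36 to 1.54) and 1.41 (1.31 to 1.51) in those same cycling cells, against 1.11 and 1.10 in cycling cells with a heavy chain. Hspa5 lay near the young value in resting cells with a heavy chain (0.988, 0.926 to 1.05) and Hsph1 below it (0.807, 0.638 to 1.02), both with intervals that include 1.

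Values of immediate early genes, sex-linked subsets and other folding lists are given beside the aged ratios. Of 15 measured immediate early genes 9 were past 1.5-fold in aged resting cells both without a chain and with a heavy chain, with list medians of 0.65 and 0.53 over all 20 genes, and Fos stood at 1174 CPM against 393 CPM in the latter. In aged cycling cells 3 of 14 and 2 of 13 were past 1.5-fold. Aged resting cells with both chains, where the members' median was 0.01, had 9 of 15 measured immediate early genes past 1.5-fold and a list median of 0.46 over all 20. The part of these genes, or of handling, in the ratios of Dnajb1 and Hspa8 was not tested. Among aged resting cells without a chain, cells with Xist stood above those with Y-linked transcripts 1.18-fold for Hspa8 (1.13 to 1.22) and 1.40-fold for Hspe1 (1.26 to 1.55), and 0.967-fold for Hsp90ab1. Other stages differed in direction, with Hspe1 at 0.915-fold and Hspd1 at 0.805-fold in cycling cells without a chain, and Hspd1 at 0.743-fold (0.603 to 0.909) in resting cells with a heavy chain. With Y-linked cells alone in both libraries the aged ratio of Hspa8 was 1.20, 1.29, 1.15 and 1.28 in the 4 stages, in the order above. In the same comparison Hspd1 in resting cells with a heavy chain was past 1.5-fold, at 1.64 (1.44 to 1.87), against 1.24 for all cells of the stage. Its UMIs were unevenly spread, with 30.5% of them in 18 of the 1789 aged cells of this stage and 19.9% in 34 of the 3431 young cells. The counting interval does not take this in. For the other folding lists the aged medians lay between -0.03 and 0.17 in the 4 stages, and 1 gene of the 4 lists was past 1.5-fold, in the endoplasmic reticulum list of resting cells without a chain.

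The IkB-deficient library was compared with the same young library, so the ratios of the aged and IkB-deficient cells share their denominator. Every measured member stood above the young value in each of the 4 main stages, and none was called lower. In resting cells without a chain 3 of 7 measured members were called higher, where 6.23% of all genes were called higher and 9.64% lower. The counts were 0 of 8 in cycling cells without a chain (3.9% higher, 4.75% lower), 2 of 8 in cycling cells with a heavy chain (6.45% and 5.89%) and 6 of 8 in resting cells with a heavy chain (11% and 11.2%). The median of the 10 members was 0.47, 0.43, 0.35 and 0.66, where that of all genes was -0.06, 0.02, 0.02 and -0.05.

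Among the 4 main stages, resting cells with a heavy chain only (664 cells against 3431) had the highest median. Hspd1 stood at 204 CPM against 97.4 in young cells, 2.09-fold higher (1.89 to 2.31). Hspa8 stood at 2342 against 1240 CPM, 1.89-fold higher (1.83 to 1.94), and Hsp90aa1 at 356 against 206 CPM, 1.72-fold higher (1.60 to 1.86). Hspe1 was 1.65-fold higher (1.53 to 1.78), Hspa5 1.62-fold (1.51 to 1.74) and Dnajb1 1.58-fold (1.39 to 1.80). Hsp90ab1 at 1.29-fold (1.25 to 1.33) and Hsph1 at 1.32-fold (1.02 to 1.69) were the measured members short of 1.5-fold. Thus cytosolic, mitochondrial and endoplasmic reticulum chaperones were all among the called members.

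These cells differed between the libraries in more than the members. The list of immature or mature B genes (Fcer2a, Fcmr, Cd74, H2-Aa, Ms4a1, Ighd and Cr2) stood at 9294 CPM in the IkB-deficient, 1348 in the aged and 1551 in the young cells of this stage. Cd74 led it at 7213, 1019 and 1170 CPM in the same order, and 7, 6 and 7 of 7 genes were detected. Where cells had to carry at least 3 UMIs of Vpreb1, Igll1 and Dntt together and none of Fcer2a and Fcmr, 135 IkB-deficient and 164 young cells remained, the median was 0.20, and Hspd1 and Hspe1 lay below the young value at -0.18 and -0.17. The median was thus smaller in that subset, which is a small part of the 664 and 3431 cells of the stage. Of the measured members, Hspa8, Hspa5, Dnajb1, Hsph1 and Hsp90aa1 stayed above the young value in every alternative (lowest log2 ratios 0.40, 0.42, 0.31, 0.26 and 0.099). Hsp90ab1 fell below it in 1 alternative (-0.17). The part of the listed immature or mature B genes in the ratios of this stage was not tested further.

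In resting cells without a chain Hspa8 was 1.62-fold higher (1.58 to 1.66), Hspd1 1.5-fold (1.36 to 1.65) and Hspe1 1.502-fold (1.40 to 1.61), and Hspa5 at 1.49-fold (1.40 to 1.59) lay just short of the size that was called. In cycling cells with a heavy chain Hspd1 was 1.58-fold higher (1.47 to 1.69) and Hsph1 1.55-fold (1.22 to 1.94). In cycling cells without a chain the ratios of measured members ran from 1.09 for Dnajb1 to 1.48 for Hspd1 (1.39 to 1.58). Without a chain, the same list of immature or mature B genes stood at 4021 against 243 CPM in resting cells. In cycling ones it stood at 2078 against 62.2 CPM, and at 3066 against 535 CPM in cycling cells with a heavy chain. Cd74 alone gave 3240, 1674 and 2388 CPM of the IkB-deficient sums, so the list does not by itself show mature B cells there. The part of the list in these ratios was not tested. Among cells with a light chain only (583 against 104) 3 of 8 measured members were called higher and 0 lower, where 14.5% of all genes were called higher and 20.8% lower. The 3 were Hsp90aa1 at 2.07-fold (1.61 to 2.69), Hspa8 at 1.71-fold (1.55 to 1.89) and Hspd1 at 1.55-fold (1.09 to 2.27). These cells were not split by cycling, and the part of cycling cells in their ratios was not tested. In Siglech-positive cells, where the list stood at 13599 against 3272 CPM, the ratios were mixed, with Hspa5 at 0.944 (0.888 to 1.003), Hspe1 at 0.965 (0.907 to 1.03), Hspa8 at 1.33 (1.29 to 1.37) and Dnajb1 at 1.49 (1.31 to 1.69). The ratio of Dnajb1 was thus near equal in IkB-deficient and aged Siglech-positive cells (124 and 121 CPM), which were set against the same 83.6 CPM.

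The other folding lists were displaced less. In resting cells with a heavy chain the medians were 0.17 for HSF1 and cytosolic co-chaperones, 0.37 for the endoplasmic reticulum list, 0.19 for mitochondrial chaperones and 0.17 for TRiC and prefoldin, with 3 of 19, 4 of 19, 2 of 10 and 0 of 13 measured genes past 1.5-fold upward and 2, 1, 0 and 0 downward, beside the 11% and 11.2% of all genes. Ptges3, the HSP90 co-chaperone p23, stood at 201 against 97.8 CPM (2.06-fold) and Hspa9 at 111 against 63.0 CPM (1.77-fold). Dnajc7, an HSP40 that binds both HSP70 and HSP90, went the other way at 2155 against 4210 CPM (0.512-fold). In cycling cells without a chain all 13 TRiC and prefoldin genes stood above the young value with a median of 0.32, and 0 of them was past 1.5-fold.

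**Figure D4:**
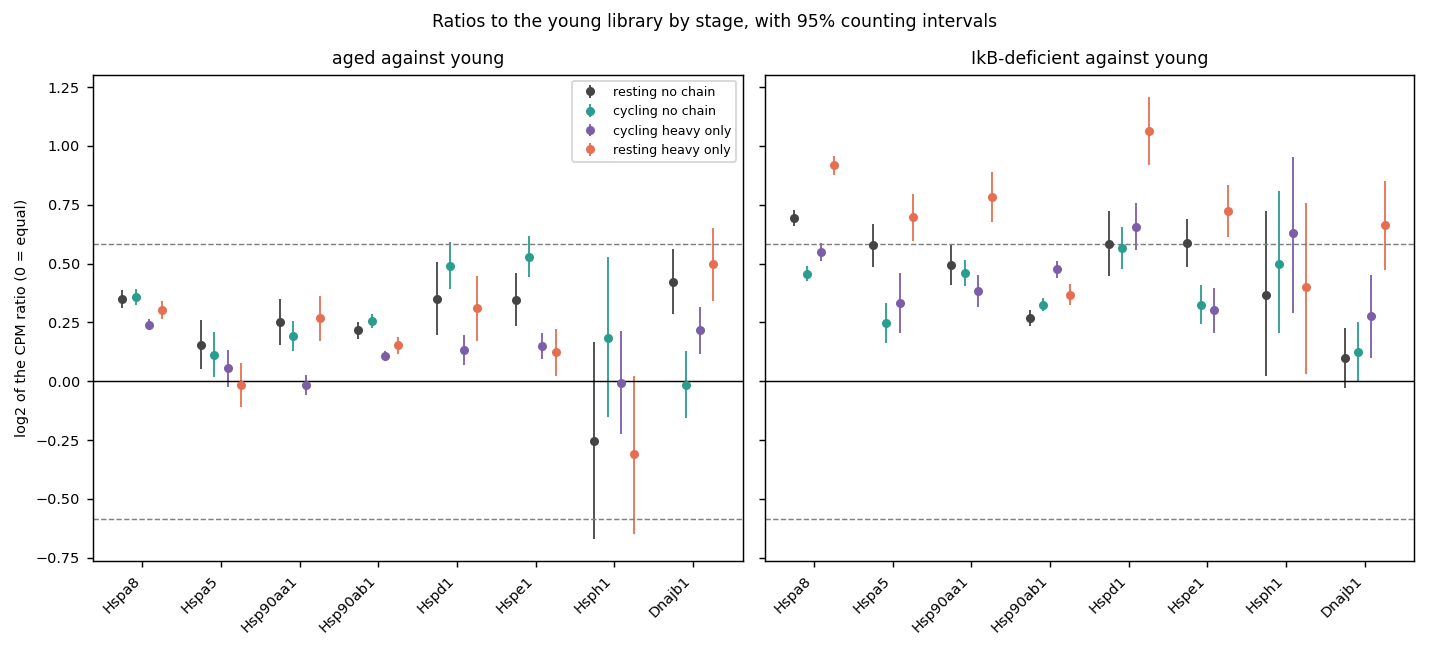
Ratio of CPM to the young library on the log2 scale for 8 members in 4 stages, aged library on the left and IkB-deficient library on the right. Points are ratios of 1 library to 1 library, bars 95% counting intervals and dashed lines 1.5-fold. In the right panel the points of resting cells with a heavy chain reach the highest ratios, 2.09-fold for Hspd1 and 1.89-fold for Hspa8, and in the left panel all points lie within the dashed lines.

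The stress-inducible pair Hspa1a and Hspa1b stayed at low counts throughout. Resting cells without a chain held 10, 38 and 101 UMIs of Hspa1a in the young, aged and IkB-deficient libraries (1.87, 3.94 and 4.396 CPM) and 2, 8 and 28 UMIs of Hspa1b. The highest well-counted level was in IkB-deficient cycling cells without a chain, with 318 UMIs of Hspa1a in 1896 cells, or 12.3 CPM, against 16 UMIs in 387 young cells, or 3.33 CPM, a ratio of 3.70 (2.25 to 6.56). The aged cells of this stage held 35 UMIs in 718 cells, or 3.55 CPM, at a ratio of 1.06 to young (0.574 to 2.06). Within that aged stage the 154 cells with Xist stood at 8.33 CPM (17 UMIs) and the 416 cells with Y-linked transcripts at 2.13 CPM (13 UMIs), 3.92-fold apart (1.79 to 8.78), and nearly all IkB-deficient cells carry Xist, so the ratio of 3.70 cannot be told apart from the sex of the pool. The 318 UMIs of the IkB-deficient library came from 139 cells with up to 13 each. In the same stage the 16 UMIs of the young library came from 7 cells with up to 5 each. The 35 UMIs of the aged library came from 19 cells with up to 12 each. The ratios of 3.70 and 3.92 can thus depend on few cells, which the counting intervals do not take in. In IkB-deficient resting cells with both chains the 6 UMIs of Hspa1a came from 1 cell, so the level of 18.2 CPM there rests on that cell. Siglech-positive cells of the IkB-deficient library held 63 UMIs of Hspa1a and 29 of Hspa1b, against 6 and 0 in the young library, where the limit of 3 counts for 0 UMIs is 0.839 CPM. None of the 5 edgeR stage contrasts called either gene, and the lowest adjusted p among them was 0.0895, for Hspa1a in cycling cells without a chain (0.88 ± 0.44). That contrast was called for Hspa1a without the aged library (1.35, edgeR adjusted p = 0.0229), with no filter on low counts (0.95, edgeR adjusted p = 0.0407) and among cells with those progenitor genes and without Fcer2a and Fcmr (0.88, edgeR adjusted p = 0.021).

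The members were also compared by their profile of log2 levels over the 23 library-by-stage sums, as a description, since these sums share libraries and depth. Hsp90aa1, Hsp90ab1 and Hspd1 had the most similar profiles, with Pearson correlations of 0.91 to 0.95 between them, and Hspa8 followed these 3 at 0.80 to 0.83. Hspd1 and Hspe1, the pair of the mitochondrial chaperonin, had a correlation of 0.60. Hspa5 stood apart, at -0.32 with Hsp90ab1 and with Hspd1 and 0.07 with Hspa8. Among genes outside the list the median profile of the members was most like those of Sumo2 (0.95), Hnrnpf (0.93), Impdh2 (0.93), Eif5a (0.93) and Rps6 (0.92). The genes most like Hspa8 were Rps2, Gclm, Park7, Rpl3 and Rpl10a (0.92 to 0.94), and those most like Hspa5 were Pdia4, Ncf1, Trappc5, Calr and Emc4 (0.80 to 0.83), of which Pdia4 and Calr encode chaperones of the endoplasmic reticulum. For Hspa1b the highest values, 0.65 to 0.75 for Yae1d1, Elp3, Tsc22d2, Hdhd2 and 2610507B11Rik, rest on few UMIs.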

How the data were processed

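The authors deposited raw UMI counts per gene and called cell barcode (matrices of Cell Ranger software version 3.0.1, per the file headers, on mm10, per the submitters' processing notes) and contig annotations with read and UMI counts. Cells were kept at 500 or more UMIs, 300 or more genes and at most 10% mitochondrial UMIs, and the top Scrublet scores (scanpy 1.11.5, 0.8% per 1000 cells) were removed, 723, 493 and 731 cells in the young, aged and IkB-deficient libraries. The deposited libraries held 54698092, 50701225 and 78266890 UMIs. Counts were summed per library and stage, and 651 immunoglobulin and T cell receptor genes were left out of totals. CPM have exact Poisson intervals and ratios exact conditional binomial intervals, at 95%, for counting error only. Log2 ratios of lists and members use a pseudocount of 5 CPM. Ratios were made in stages of at least 100 cells in both libraries, and a gene was measured at a mean of 20 CPM. Stage contrasts used edgeR 4.0.16 (R 4.3.3; TMM, quasi-likelihood test, library as block, filterByExpr) on stages of at least 50 cells, with Benjamini-Hochberg adjusted p under 0.05 as the threshold, and DESeq2 1.42.0 as an alternative. The edgeR stage test was tried on simulated counts with known changes in cycling cells without a chain. It recovered 86% of genes changed 2-fold and 98% to 100% of those changed 4-fold, and called 0.062% of unchanged genes. The simulation held no difference between libraries and no smaller changes, so it does not show how well those are found. Each stage pairs within a library because its cells come from the same pool of mice. Named genes were the 10 members, up to 4 genes of highest mean CPM per list and the 5 genes most like each of 4 profiles. Hsp90b1, Hspa9, Ptges3, Dnajc7 and Fos come from the lists. Members and lists were chosen with earlier results of these data known. Alternatives are given in the closing section, and the contrast of cycling effects was added after seeing the data.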

Additional observations from a re-analysis of the deposited data

How the results depend on the processing

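Group ratios rest on 1 library against 1, so depth limits only the counting error and no alternative supplies a replicate. The aged median of the 10 members was -0.11 in cycling cells with a heavy chain and -0.0241 in resting ones when cells needed progenitor markers and no Fcer2a or Fcmr. In aged resting cells with a heavy chain it was 0.0883 with cells weighted equally and 0.11 with cycling at 5 or more and resting at 0 UMIs. In IkB-deficient resting cells with a heavy chain the progenitor restriction gave a median of 0.20, with Hspd1 at -0.18 and Hspe1 at -0.17. The cause was not tested.

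The stage contrasts had the library as a block. Without the replicate block, 4 members rose in cycling cells with a heavy chain, and 0 rose and 0 fell with the gain of a heavy chain. The 1 member that fell in cycling cells with a heavy chain, Hspa5, was not called (0) without the block, with DESeq2, with no filter on low counts, with cycling at 5 or more UMIs, with no doublets removed, with the progenitor restriction or without any 1 library (range 0 to 0). With the gain of a heavy chain, leaving out 1 library gave 0 to 1 member higher and 0 to 1 lower, and the progenitor restriction 6 higher and 0 lower. That restriction kept only a small part of the resting cells with a heavy chain, but most of those without a chain. Between both chains and a heavy chain, DESeq2 and no filter each gave 1 member lower. In Siglech-positive cells, 2 to 4 members were higher when 1 library was left out, 4 of them without the IkB-deficient one. No paired analysis was possible because each group is 1 library for the comparisons between groups.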
